A study of Rattus norvegicus with 12 samples.

Results

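Verrucomicrobiota are a bacterial phylum whose best known gut member, Akkermansia, lives in the mucus layer of the intestine. Its members were taken from a table of 16S rRNA gene reads of rat faeces as every ASV (amplicon sequence variant, a read sequence resolved to single bases) whose lineage names the phylum. This gave 36 of the 7240 ASVs, with 53552 reads in all. The labels describe 4 groups of 3 libraries: Sham (sham-operated rats), SAH (the model of subarachnoid haemorrhage, a bleed into the space around the brain), SAH+Tet (haemorrhage plus tetrandrine, an alkaloid of a medicinal plant) and SAH+Tet+ABX (haemorrhage plus tetrandrine and ABX, which the labels do not spell out and which is read here in its usual sense, antibiotics). The design text states the purpose as comparing gut microbiota composition among these groups. All groups except Sham carry the haemorrhage model, and both Tet groups carry tetrandrine. For strain, sex, age, doses, the antibiotics used and the interval to sampling, the entry is: not given in the sources used here. The labels give all libraries 1 and the same batch. They also repeat, for every library, a treatment naming a kind of cell differentiation, which does not describe faeces and was not used. Nothing says whether libraries come from separate rats or cages, so p-values measure only the spread between these libraries, which may be technical.

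Akkermansia grows on mucin, the glycoprotein of intestinal mucus, and releases acetate and propionate as it does so. Its share of faecal bacteria is known to vary widely between animals and to be high in some antibiotic-treated hosts. WCHB1-41 belongs to the Kiritimatiellae, a class of anaerobes found in animal guts and sediments. Victivallaceae and vadinBE97 belong to the Lentisphaeria, a class with the cultured gut genus Victivallis, and Puniceicoccaceae belong to the Opitutales. Chlamydiae, which live inside other cells, are counted in this phylum by the taxonomy used.

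The 36 ASVs fell into 4 classes and 16 genus-level names, of which 10 are genus names. Akkermansia had 4 ASVs, WCHB1-41 had 15, and the remaining names had 17 together. The ASVs are called here by their row in the deposited table, which is sorted by total reads. Of the 36, 19 had at least 10 reads in some library. The other 17 had at most 6 reads in any library and 60 reads in all. The deposited table pairs each ASV with a lineage, and sequences were not analysed here.

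Libraries held 211450 to 531426 reads and fell into 2 depth classes. The lower class, with at most 248285 reads, has 5 libraries, namely the 3 of SAH+Tet+ABX together with SAH 1 and SAH+Tet 3. The higher class has 7 libraries, with at least 448795 reads. In a library, 3 reads make 0.000565% to 0.00142% of the total, which is the share a count of 0 allows. Such limits and the intervals below cover counting error only, since PCR copies are not independent molecules. SAH 1 and SAH+Tet 3 stand apart: each held 4 reads of the phylum, against 124 to 28209 in the other libraries. Comparisons without the antibiotic group were also fitted on the higher depth class alone.

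Akkermansia was abundant in Sham and SAH+Tet+ABX and scarce in SAH and SAH+Tet. In Sham 1, 2 and 3 it held 1.09%, 5.44% and 1.80% of reads, a mean of 2.77% ± 2.33 (SD, n = 3 for this and each following group mean). In SAH 1, 2 and 3 the shares were 0%, 0.0442% and 0.0334%, a mean of 0.0259% ± 0.0231. In SAH+Tet 1, 2 and 3 they were 0.0478%, 0.00503% and 0%, a mean of 0.0176% ± 0.0263. SAH+Tet+ABX 1, 2 and 3 held 0.244%, 1.46% and 1.83%, a mean of 1.18% ± 0.829. Every library of Sham and of SAH+Tet+ABX lay above every library of SAH and SAH+Tet. By mean share Akkermansia was 9th of 256 genus-level names with a read in Sham and 13th of 170 in SAH+Tet+ABX, but 113th of 269 in SAH and 122nd of 269 in SAH+Tet. In the order Sham, SAH+Tet+ABX, SAH and SAH+Tet, the first pair of neighbours overlapped, the last pair overlapped, and the middle pair did not. The share differed among the 4 groups (exact permutation test of the F statistic on log10 of the percent plus 0.00142, p = 0.00773 over 15400 arrangements). That p was between 0.00344 and 0.0173 when any 1 library was left out. Read shares are relative, so fewer Akkermansia cells and more cells of other bacteria cannot be told apart.

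**Figure D1:**
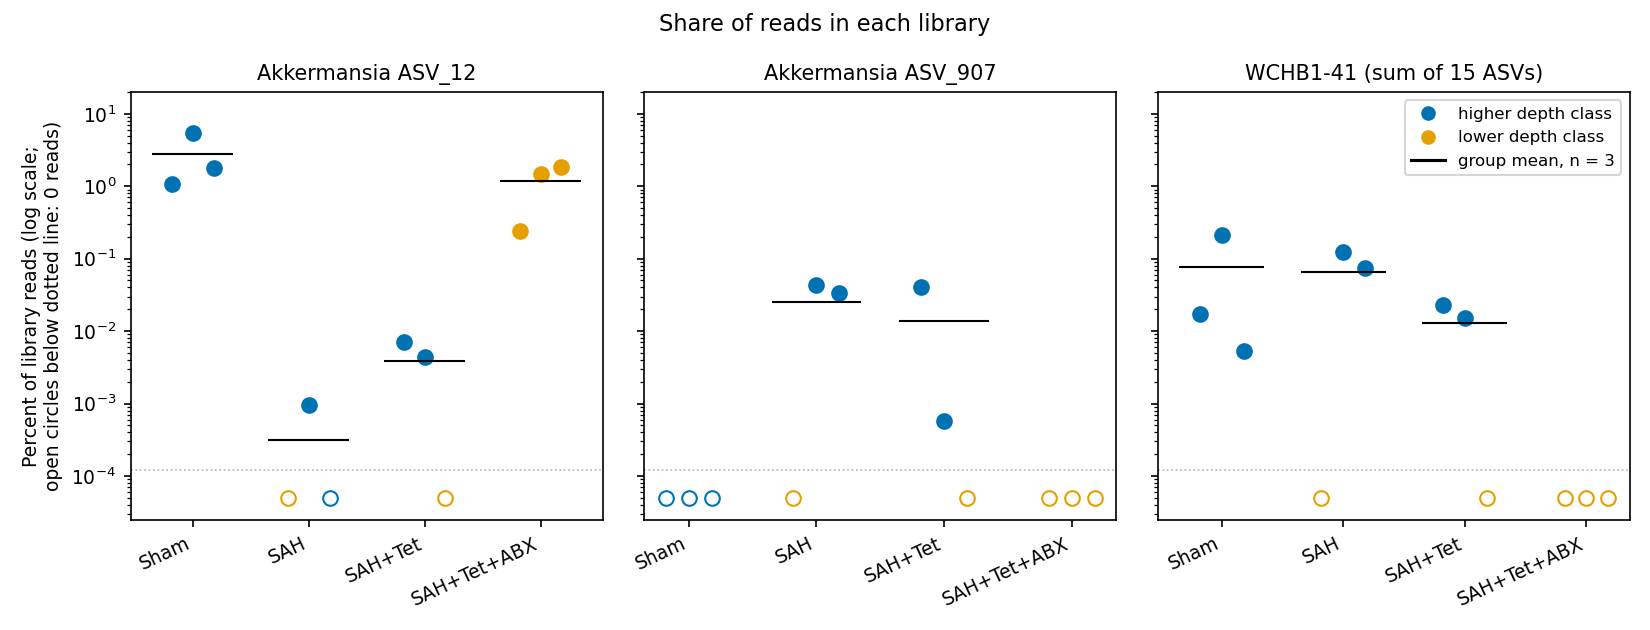
Percent of library reads on a log axis in each of the 12 libraries, by group, for the Akkermansia ASVs ASV_12 and ASV_907 and for WCHB1-41. Filled circles are libraries, coloured by depth class, lines are group means (n = 3), and open circles below the dotted line are libraries with 0 reads, drawn at an arbitrary height. ASV_12 is at 0.244% or more in the Sham and SAH+Tet+ABX libraries and at 0.00699% or less in the others, while ASV_907 appears only in SAH and SAH+Tet.

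The genus was made of different ASVs in different groups. ASV_12, whose lineage ends at the genus, supplied all 5391, 27103 and 9349 Akkermansia reads of Sham 1, 2 and 3. It also supplied all 516 and 3420 Akkermansia reads of SAH+Tet+ABX 1 and 2, and 4469 of the 4477 reads of SAH+Tet+ABX 3. ASV_907, which carries the added species name of an uncultured bacterium, had 0 reads in these 6 libraries. It supplied 230 of 235 Akkermansia reads in SAH 2 and all 150 in SAH 3. The reads of SAH and of the other pair of groups thus came almost wholly from separate ASVs.

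SAH+Tet held both ASVs. ASV_12 had 32 reads and ASV_907 had 187 reads in SAH+Tet 1, and they had 23 and 3 reads in SAH+Tet 2. The part of Akkermansia reads in ASV_12 was 14.6% in SAH+Tet 1 (exact 95% binomial interval 10.2 to 19.997) and 88.5% in SAH+Tet 2 (69.8 to 97.6). In SAH it was 2.13% (0.694 to 4.90) in SAH 2 and 0% (0 to 2.43) in SAH 3. In Sham it was 100% in each library, with a lower bound of at least 99.9%, and in SAH+Tet+ABX it was 100%, 100% and 99.8%, with a lower bound of at least 99.3%. The intervals of SAH 2, SAH 3 and both SAH+Tet libraries lay below those of all Sham and SAH+Tet+ABX libraries. SAH 1 and SAH+Tet 3 had 0 Akkermansia reads, so no part can be given for them. In those libraries 3 reads make 0.00121% and 0.00132%, below the Akkermansia share of each other library of their groups.

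**Figure D2:**
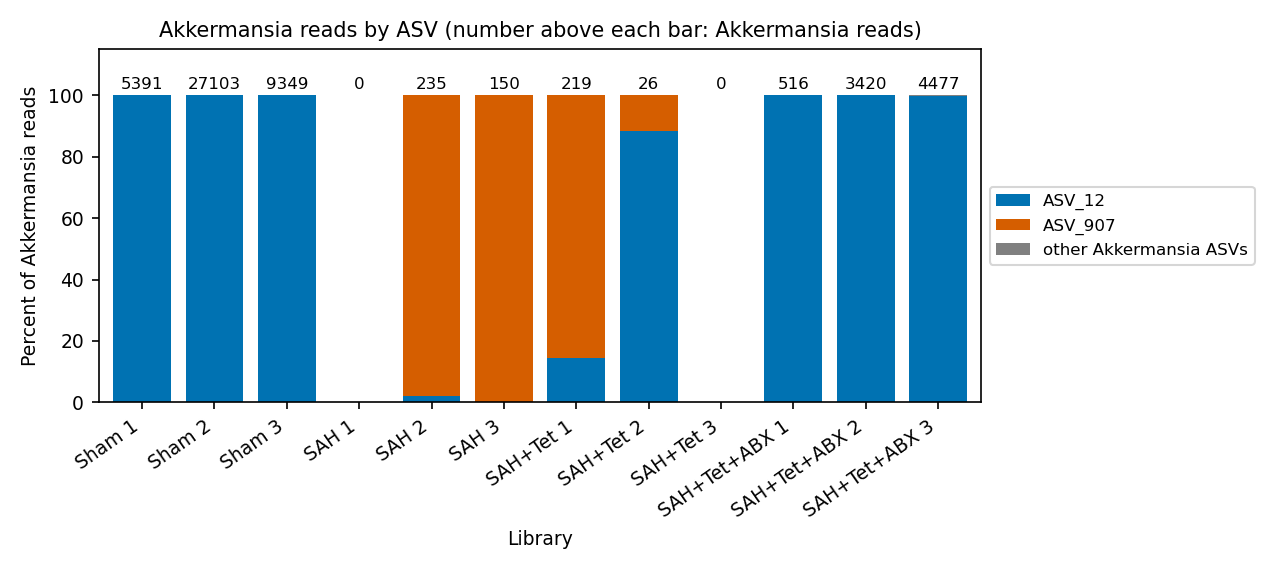
Percent of the Akkermansia reads of each library that came from ASV_12, ASV_907 and the other 2 Akkermansia ASVs, with the number of Akkermansia reads above each bar. Sham and SAH+Tet+ABX bars are ASV_12, the SAH 2 and SAH 3 bars are almost all ASV_907, the SAH+Tet bars hold both at 14.6% and 88.5% ASV_12, and SAH 1 and SAH+Tet 3 have no bar because they had 0 reads.

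The same Akkermansia ASV was therefore present in Sham and SAH+Tet+ABX. With presence set at 10 reads in a library, Sham held 1 Akkermansia ASV, SAH+Tet+ABX held 1, and it was the same one, ASV_12. It made up 99.9% ± 0.103 of the Akkermansia reads of SAH+Tet+ABX (n = 3). With presence at 1 read the SAH+Tet+ABX group held 3 Akkermansia ASVs, because ASV_5654 and ASV_5659 had 4 reads each in SAH+Tet+ABX 3 (these were singled out after their values were seen). For all ASVs together, 385 were present in both groups, which is 13.2% of the 2917 of Sham and 47.3% of the 814 of SAH+Tet+ABX. ASVs present in both held 63.6%, 86.9% and 69.8% of all reads in SAH+Tet+ABX 1, 2 and 3. By mean share ASV_12 ranked 4th of 3763 ASVs with a read in Sham and 18th of 1101 in SAH+Tet+ABX. It ranked 2726th of 3190 in SAH and 1721st of 3909 in SAH+Tet, where ASV_907 ranked 490th and 766th.

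The effect of the haemorrhage model was asked by comparing SAH with Sham. Akkermansia had a log2 fold change of -6.62 ± 2.37 SE and did not pass the test over all genera (edgeR quasi-likelihood, Benjamini-Hochberg adjusted p = 0.115, threshold 0.05), although the groups did not overlap. ASV_12 held 1.09%, 5.44% and 1.80% of reads in Sham and 0%, 0.000941% and 0% in SAH. All SAH libraries were below all Sham libraries, and its log2 fold change was -12.58 ± 2.80 SE (edgeR adjusted p = 0.110 over all ASVs). All 5 ASV_12 reads of SAH lie in SAH 2, and the log2 fold change was -16.50 without that library and -11.48 to -13.00 without any other. Without SAH 2 the group has 0 reads of ASV_12, so the size of -16.50 is not a measured fold. ASV_907 moved the other way, with 0 reads in Sham and 0%, 0.0433% and 0.0334% in SAH, a mean at least 43.0-fold above the 3-read limit of the Sham libraries (edgeR adjusted p = 0.170). Without SAH 2 the bound was 28.1-fold. SAH 1 is level with Sham at 0 reads. ASV_907 met the filter of 10 reads in 3 libraries only through SAH 2, SAH 3 and SAH+Tet 1, where it is high. Its entry into tests against Sham and SAH+Tet+ABX was thus selected, and its p-values there are a description.

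For SAH against Sham edgeR called 0 of 187 genera and 0 of 2283 ASVs, a background of 0%, so 0 of 9 tested Verrucomicrobiota ASVs passed. At an unadjusted p below 0.05 there were 55 genera and 552 ASVs, of which 4 were Verrucomicrobiota. DESeq2 called 50 genera and 407 ASVs, and limma on centred log-ratio values called 9 and 270. Akkermansia passed in DESeq2 (adjusted p = 0.00424), in limma (0.0412), in edgeR with depth class as a term (0.0425) and in edgeR on the higher depth class alone (-5.71, adjusted p = 0.0221). ASV_12 passed in DESeq2 (adjusted p = 2.04e-08), in limma (0.00257), and in edgeR without the filter on low counts (0.000480) or on these 2 groups alone (0.0313). On the higher depth class alone it did not pass (-12.03, edgeR adjusted p = 0.0723), nor did ASV_907 (adjusted p = 0.0960).

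Tetrandrine in rats with haemorrhage was assessed by comparing SAH+Tet with SAH. Akkermansia overlapped between the groups, with a log2 fold change of -0.61 ± 1.87 SE (edgeR adjusted p = 0.869). ASV_12 had 32, 23 and 0 reads in SAH+Tet 1, 2 and 3, and 0, 5 and 0 reads in SAH. Both SAH+Tet libraries of the higher depth class were above all SAH libraries, but SAH+Tet 3 was not, and the log2 fold change was 3.26 ± 1.93 SE (edgeR adjusted p = 0.375). Without SAH 2 it was 7.22 (edgeR adjusted p = 0.326), but SAH then has 0 reads of ASV_12, so that size is not a measured fold. ASV_907 had 187, 3 and 0 reads in SAH+Tet and 0, 230 and 150 in SAH, with a log2 fold change of -1.17 ± 2.63 SE (edgeR adjusted p = 0.947). Neither ASV nor the genus differed beyond the spread between libraries. On the higher depth class alone the log2 fold change was -0.89 for the genus, 3.16 for ASV_12 and -1.22 for ASV_907 (edgeR adjusted p = 0.674, 0.360 and 0.904). EdgeR called 0 of 187 genera and 0 of 2283 ASVs here (background 0%), and 33 genera and 474 ASVs had an unadjusted p below 0.05, 1 of them from this phylum. DESeq2 called 32 genera and 294 ASVs and limma called 1 and 112, with 0 Verrucomicrobiota ASVs in each.

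SAH+Tet was also set against Sham. Akkermansia was lower in all 3 SAH+Tet libraries than in any Sham library, with a log2 fold change of -7.23 ± 2.44 SE (edgeR adjusted p = 0.195). ASV_12 had a log2 fold change of -9.33 ± 2.49 SE (edgeR adjusted p = 0.135), and its highest SAH+Tet share, 0.00699%, was far under the lowest Sham share of 1.09%. ASV_907 had 0 reads in Sham, and its SAH+Tet mean of 0.0138% ± 0.0234 was at least 23.2-fold above their 3-read limit (edgeR adjusted p = 0.237). It rests on SAH+Tet 1, which held 187 reads, against 3 and 0 in SAH+Tet 2 and 3, whose mean is under that limit. The entry of ASV_907 into this test was selected as above, so its p is a description. EdgeR called 0 of 187 genera and 0 of 2283 ASVs (background 0%), with 34 and 437 at an unadjusted p below 0.05. DESeq2 called 34 genera and 268 ASVs, and limma 0 and 218. Akkermansia passed in DESeq2 (adjusted p = 0.00213), in edgeR with depth class as a term (0.0351) and on the higher depth class alone (-6.59, adjusted p = 0.0136). As for SAH against Sham, the depth term and the higher class alone are not separate support. On the higher depth class alone ASV_12 (-8.88, adjusted p = 0.0900) and ASV_907 (adjusted p = 0.126) did not pass in edgeR.

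Antibiotics on top of tetrandrine were assessed by comparing SAH+Tet+ABX with SAH+Tet. Akkermansia rose, with a log2 fold change of 6.33 ± 2.23 SE (edgeR adjusted p = 0.0465), and its lowest SAH+Tet+ABX share of 0.244% was above the highest SAH+Tet share of 0.0478%. In this comparison 74 of 195 genera were called, a background of 37.9%, and of these 18 rose and 56 fell (38 and 67 in DESeq2, 42 and 33 in limma on centred log-ratio values). ASV_12 held 0.244%, 1.46% and 1.83% of reads in SAH+Tet+ABX and 0.00699%, 0.00445% and 0% in SAH+Tet. The groups did not overlap, and the log2 fold change of 7.30 ± 2.20 SE missed the threshold (edgeR adjusted p = 0.0538). ASV_907 had 187, 3 and 0 reads in SAH+Tet and 0 in all SAH+Tet+ABX libraries, so that SAH+Tet was at least 10.6-fold higher (edgeR adjusted p = 0.0883), a bound that again needs SAH+Tet 1. Its entry into the test was selected as above. At ASV level 247 of 2394 were called, a background of 10.3%, and 0 of the 9 tested Verrucomicrobiota ASVs were among them, with 4 at an unadjusted p below 0.05. DESeq2 and limma each called 1 of them, beside 874 and 234 of all 2394 ASVs.

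The call for Akkermansia was lost in several settings. The edgeR adjusted p was 0.0529 with library totals alone, 0.0573 with these 2 groups alone and 0.153 with a block for replicate number. It held in limma (10.16, adjusted p = 0.00137) and in edgeR with depth class as a term (15.77, adjusted p = 0.00264). That depth term is set by SAH 1 and SAH+Tet 3, which had 0 Akkermansia reads. The 15.77 is therefore not a measured fold, and the call kept with it adds no support. Without single libraries the edgeR adjusted p was 0.0572 (Sham 1), 0.0588 (Sham 2), 0.0633 (Sham 3), 0.0585 (SAH 2), 0.0607 (SAH 3), 0.128 (SAH+Tet 2), 0.0612 (SAH+Tet 3), 0.0813 (SAH+Tet+ABX 2) and 0.0957 (SAH+Tet+ABX 3). SAH+Tet 3 is the only SAH+Tet library in the depth class of the antibiotic group, and it had 0 Akkermansia reads. The antibiotic libraries, also of the lower class, held 516 to 4477.

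**Figure D3:**
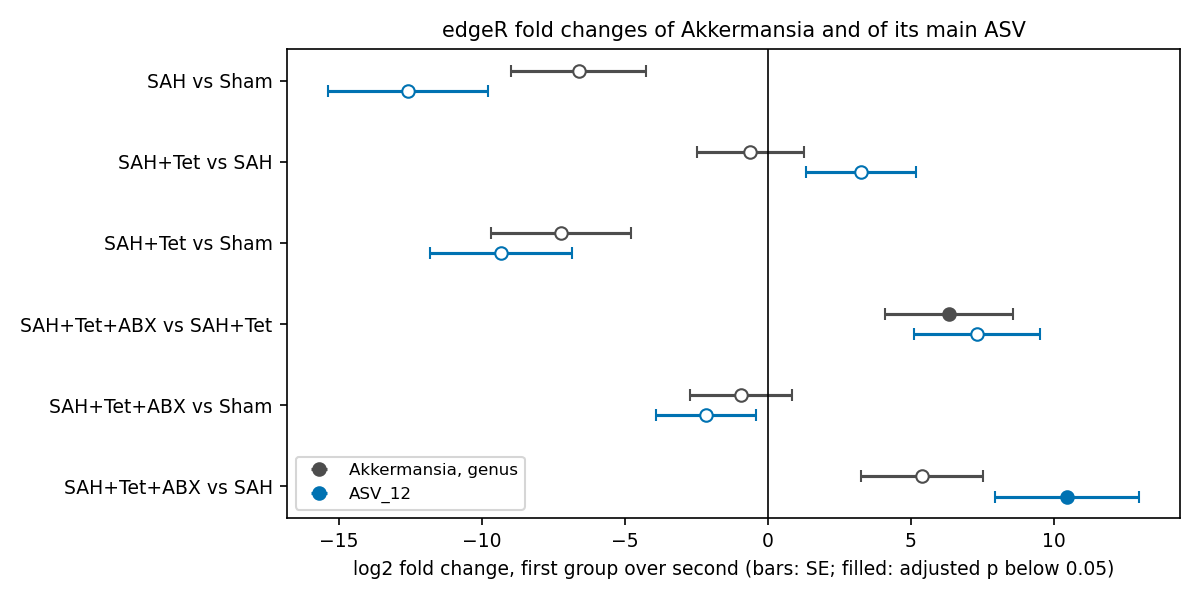
Log2 fold changes of the genus Akkermansia and of ASV_12 in 6 comparisons from edgeR, first group over second, with bars of 1 SE on each side and filled points where the adjusted p is below 0.05. The filled points are the genus for SAH+Tet+ABX against SAH+Tet (6.33) and ASV_12 for SAH+Tet+ABX against SAH (10.47); the points for SAH and SAH+Tet against Sham lie at -6.62 or lower and are open.

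SAH+Tet+ABX was next compared with SAH. ASV_12 rose, with a log2 fold change of 10.47 ± 2.51 SE (edgeR adjusted p = 0.0305), from 0, 5 and 0 reads in SAH to 516, 3420 and 4469. Without SAH 2 the value was 14.45 (edgeR adjusted p = 0.0448), but SAH then has 0 reads of ASV_12, so that size is not a measured fold. The genus was higher in every SAH+Tet+ABX library than in any SAH library, with a log2 fold change of 5.39 ± 2.14 SE. It did not pass in edgeR (adjusted p = 0.0766) but did in DESeq2 (0.00181) and limma (0.00231). With depth class as a term edgeR gave 14.85 (adjusted p = 0.00303). That term is set by SAH 1 and SAH+Tet 3, which had 0 Akkermansia reads. The 14.85 is therefore not a measured fold, and its call adds no support. ASV_907 had 0 reads in SAH+Tet+ABX and a mean of 0.0256% ± 0.0227 in SAH, at least 19.5-fold higher there (edgeR adjusted p = 0.0830). Here too its entry into the test was selected. EdgeR called 54 of 195 genera (27.7%; 10 rose and 44 fell, against 40 and 25 in limma) and 187 of 2394 ASVs (7.81%), and ASV_12 was the only 1 of 9 tested Verrucomicrobiota ASVs called. Its adjusted p was 0.0529 without Sham 1, 0.0533 without Sham 3, 0.0708 without SAH 3, 0.0502 without SAH+Tet+ABX 1, 0.0621 without SAH+Tet+ABX 2 and 0.0707 without SAH+Tet+ABX 3 (edgeR).

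Between SAH+Tet+ABX and Sham, Akkermansia overlapped: 0.244%, 1.46% and 1.83% against 1.09%, 5.44% and 1.80%. The log2 fold change was -0.94 ± 1.79 SE (edgeR adjusted p = 0.779), and for ASV_12 it was -2.15 ± 1.74 SE (edgeR adjusted p = 0.304). These SEs leave room for changes of several fold either way, so a like level is not shown. The sign turned in limma on centred log-ratio values (0.56 for the genus, adjusted p = 0.831) and in edgeR with depth class as a term (9.09, adjusted p = 0.0276). All Sham libraries are in the higher depth class and all SAH+Tet+ABX libraries in the lower, so the depth term is set by SAH 1 and SAH+Tet 3, which had 0 Akkermansia reads. Here edgeR called 70 of 195 genera (35.9%; 19 rose and 51 fell, against 35 and 43 in limma) and 830 of 2394 ASVs (34.7%).

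WCHB1-41 was the next genus-level name by reads, and it had no reads in the antibiotic group. Its shares in Sham 1, 2 and 3 were 0.0173%, 0.210% and 0.00539%, a mean of 0.0775% ± 0.115. In SAH they were 0%, 0.125% and 0.0742%, a mean of 0.0664% ± 0.0628, and in SAH+Tet 0.0229%, 0.0153% and 0%, a mean of 0.0127% ± 0.0117. Sham, SAH and SAH+Tet overlapped, and in Sham the reads were 86, 1045 and 28, so that Sham 2 held most of them. SAH+Tet+ABX had 0 reads in each of its 3 libraries. Sham was at least 59.2-fold higher than the 3-read limit of those libraries, SAH at least 50.7-fold and SAH+Tet at least 9.74-fold. The bounds were 8.69-fold without Sham 2, 28.4-fold without SAH 2 and 5.84-fold without SAH+Tet 1. The fall against Sham passed in edgeR (adjusted p = 0.0449), and those against SAH (0.0514) and SAH+Tet (0.0793) did not. All 3 passed in DESeq2 (adjusted p = 0.00127, 0.00181 and 0.0273 in the same order) and in edgeR without the filter on low counts (0.0174, 0.0167 and 0.0463). WCHB1-41 met the filter of 10 reads in 3 libraries only through the groups without antibiotics, so its p-values against SAH+Tet+ABX are a description.

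Other settings lost the call against Sham. The edgeR adjusted p was 1 with depth class as a term, 0.0969 with the replicate block and 0.0747 in limma. It was 0.0225 without SAH 1 and 0.0351 without SAH+Tet 3, and 0.0583 to 0.106 without any other single library. The libraries with 0 reads of WCHB1-41 are the 5 of the lower depth class, and the 7 of the higher class held 28 to 1045 reads. Depth class thus went with WCHB1-41 within SAH and within SAH+Tet too. Of the Verrucomicrobiota ASVs tested for SAH+Tet+ABX against Sham, 3 of 9 fell, beside the 34.7% called over all ASVs. They were ASV_617 (edgeR adjusted p = 0.0487), ASV_1362 (0.0458) and ASV_2659 (0.0421), all WCHB1-41. ASV_2659 met the filter of 10 reads only through the 3 Sham libraries, where it is high, so its entry into the test was selected and its call is a description. ASV_617 and ASV_1362 met that filter only through the groups without antibiotics, so their calls are a description too. The Sham means of ASV_617 and ASV_1362 were at least 30.2-fold and 9.69-fold above the 3-read limit of the antibiotic libraries. Sham 2 carries both, and without it they were 1.06 and 1.58 times that limit. The mean of ASV_2659 was at least 4.03-fold above it, and 1.65-fold without Sham 1. All 3 calls were lost without any 1 of the SAH+Tet+ABX libraries (adjusted p 0.0957 to 0.112) and with depth class as a term (1). The calls of ASV_617 and ASV_1362 were also lost without any 1 of the Sham libraries, SAH 2, SAH 3 or SAH+Tet 2 (0.0513 to 0.123), and that of ASV_617 without SAH+Tet 1 (0.0520).

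Single WCHB1-41 ASVs also differed in which groups held them. ASV_617 and ASV_1362 were the most widespread, with reads in 7 libraries each. ASV_617 had 8, 578 and 6 reads in Sham, 0, 217 and 121 in SAH, and 42, 9 and 0 in SAH+Tet. ASV_1362 had 10, 169 and 11 reads in Sham, 0, 86 and 30 in SAH, and 15, 7 and 0 in SAH+Tet. Both were highest in Sham 2. ASV_2284 had 0, 29 and 0 reads in Sham, 0, 56 and 20 in SAH, and 8, 14 and 0 in SAH+Tet. It was highest in SAH 2 (SAH against Sham, edgeR adjusted p = 0.804). ASV_1806 and ASV_2154 had reads only in SAH 2 (125 and 93) and SAH 3 (84 and 51). ASV_2608 and ASV_2659 showed the reverse, with 11, 57 and 0 reads and 57, 11 and 11 reads in Sham, 0 in SAH, and 4, 23 and 0 and 7, 6 and 0 in SAH+Tet. For SAH against Sham the edgeR adjusted p was 0.196 for ASV_2608. It met the filter of 10 reads in 3 libraries only through Sham and SAH+Tet, so that p is a description. ASV_1806 and ASV_2154 were below that filter.

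Of the 14 WCHB1-41 ASVs with at least 10 reads in a library, 4 had reads in Sham, SAH and SAH+Tet, 4 in SAH alone, 3 in Sham alone, 2 in Sham and SAH+Tet, and 1 in SAH and SAH+Tet. The 3 found in Sham alone lay in Sham 2 only, with 46 to 69 reads each, and were counted after their values were seen. SAH 2 and SAH 3 held nearly the same members: 12 Verrucomicrobiota ASVs had 10 reads in SAH 2, 10 in SAH 3, and all 10 of the latter were among the 12. The ratio of their shares, SAH 2 over SAH 3, ran from 0.929 to 2.63. SAH 1 had 0 reads of every one of them. These patterns were not counted over all ASVs, so they are not read as a trait of this phylum or of WCHB1-41. With presence at 10 reads, Sham and SAH shared 51.6% of all ASVs of Sham and 63.8% of those of SAH.

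**Figure D4:**
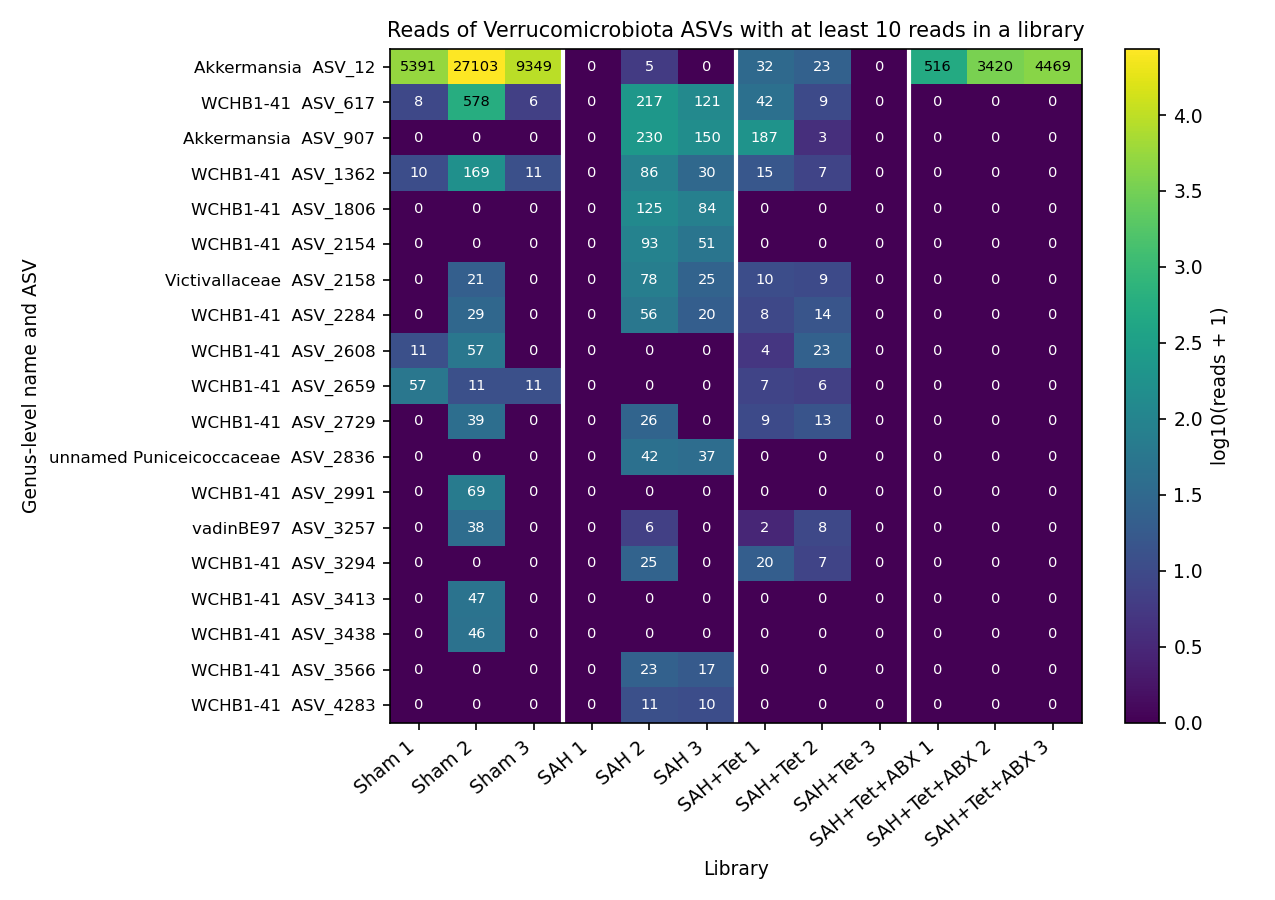
Reads of the 19 Verrucomicrobiota ASVs with at least 10 reads in a library, 1 row per ASV and 1 column per library, coloured by log10 of reads plus 1 and with the read number in each cell. SAH 1 and SAH+Tet 3 are 0 in every row, SAH+Tet+ABX libraries have reads of ASV_12 alone, and 5 ASVs have reads only in SAH 2 and SAH 3.

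The remaining names held few reads. The Victivallaceae ASV, ASV_2158, had 0, 21 and 0 reads in Sham, 0, 78 and 25 in SAH, 10, 9 and 0 in SAH+Tet, with 0 in every antibiotic library, and passed in no comparison (lowest edgeR adjusted p 0.0901 as a genus, against SAH). vadinBE97 had 38 reads in Sham 2 and at most 8 in any other library. Puniceicoccaceae without a genus name had 9 reads in Sham 3, 44 in SAH 2 and 37 in SAH 3. Chlamydiae were at trace level: the Chlamydiales without a deeper name had 2 and 4 reads in Sham 2 and 3, Neochlamydia 3 reads in Sham 3, and Parachlamydiaceae without a genus name 3 reads in SAH+Tet+ABX 2. Victivallis had 2 reads in Sham 3 and 2 in SAH+Tet 2. Prosthecobacter, DEV114, SH3-11, Alterococcus, and the Verrucomicrobiaceae, Pedosphaeraceae and Opitutaceae without a genus name had 2 to 4 reads, each in 1 library.

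Without Akkermansia the phylum looked different. The other members together made 0.0829% ± 0.120 of Sham reads and 0.0801% ± 0.0745 of SAH reads. The SAH+Tet mean was 0.0157% ± 0.0126, and that of SAH+Tet+ABX was 0.000427% ± 0.000740. Akkermansia made up 96.1% to 99.5% of the phylum's reads in Sham and 99.9% to 100% in SAH+Tet+ABX. Its part was 22.8% in SAH 2 and 27.3% in SAH 3. SAH+Tet 1 stood at 64.4% and SAH+Tet 2 at 21.0%. A phylum total therefore follows ASV_12 in Sham and SAH+Tet+ABX, and in SAH 2, SAH 3 and SAH+Tet 2 it is mostly other genera.

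Genera known to feed on mucin or to live in mucus were counted as a list of 7: Bacteroides, Parabacteroides, Muribaculum, the [Ruminococcus] gnavus group, the [Ruminococcus] torques group, Bifidobacterium and Mucispirillum. All 7 were found. In the comparisons without antibiotics 5 were tested and 0 passed in edgeR, with a median log2 fold change of 0.27 for SAH against Sham (0.10 over all genera), -1.04 for SAH+Tet against SAH (0.28) and -1.12 for SAH+Tet against Sham (0.07). In the comparisons with antibiotics 6 were tested. The [Ruminococcus] gnavus group met the read filter only through the 3 antibiotic libraries, where it is high, so it had to differ and is left out of the counts that follow. Against SAH+Tet, 0 of the other 5 rose and 2 fell in SAH+Tet+ABX, beside 37.9% of all genera called. Their median was -1.35 (-1.70 over all genera), and it was 1.31 with the gnavus group. Against Sham 0 rose and 2 fell (35.9% of all genera), with a median of -1.34 against -0.86. Against SAH 1 rose and 2 fell (27.7% of all genera), with a median of -2.58 against -2.15. The 2 that fell were Mucispirillum and Parabacteroides each time, and the 1 that rose was the [Ruminococcus] torques group. Each met the read filter only outside the group where it was lower, so these counts are a description.

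The [Ruminococcus] gnavus group, Lachnospiraceae that cleave mucin glycans, had 0 reads in the 9 libraries without antibiotics and held 0.0936%, 0.342% and 2.06% in SAH+Tet+ABX 1, 2 and 3. Its mean was at least 1401-fold above the 3-read limit of Sham, 1024-fold above that of SAH and 978-fold above that of SAH+Tet. Without SAH+Tet+ABX 3 these were 367-fold, 268-fold and 256-fold. No test is given, for the reason above. Mucispirillum, a spiral bacterium of the mucus layer, fell to 0 reads in all 3 antibiotic libraries. Its means were 0.0173% ± 0.00531 in Sham, 0.00601% ± 0.00660 in SAH and 0.0291% ± 0.0368 in SAH+Tet (edgeR adjusted p = 0.00846, 0.0164 and 0.00738). The fall against SAH was not called in limma (0.156) or with depth class as a term (0.0518). Parabacteroides, which also uses host glycans, fell from 0.157% ± 0.118, 0.170% ± 0.0649 and 0.0671% ± 0.0265 in these groups to 0.000272% ± 0.000472 (edgeR adjusted p = 0.00125, 0.00113 and 0.00220). Mucispirillum and Parabacteroides met the read filter only through the groups without antibiotics, so their p-values here are a description. The [Ruminococcus] torques group rose against SAH, from 0 reads to 0.00774% ± 0.00776, with 0 reads in SAH+Tet+ABX 1 (edgeR adjusted p = 0.0426). It met the read filter only through Sham and SAH+Tet+ABX, and in no SAH library, so that p is a description. Without any 1 Sham or SAH library, SAH+Tet+ABX 2 or SAH+Tet+ABX 3, its adjusted p was 0.0528 to 0.0951. It was 0.0992 with the replicate block and 0.0734 with depth class as a term. Bacteroides had means of 1.05% ± 0.677 in Sham, 1.87% ± 0.321 in SAH, 0.929% ± 0.285 with tetrandrine and 0.337% ± 0.372 with antibiotics added. Bifidobacterium had 0.425% ± 0.227, 0.674% ± 0.504, 0.0610% ± 0.0606 and 0.812% ± 0.899 in the same order. Neither passed in any comparison.

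The genera whose share followed that of Akkermansia most closely over the 12 libraries were named from 194 others. They were UBA1819 (Spearman correlation 0.81), the [Ruminococcus] torques group (0.78), Lachnospiraceae UCG-010 (0.76), the Prevotellaceae Ga6A1 group (0.72) and Christensenellaceae without a genus name (0.69). Lachnospiraceae UCG-010 was also high in Sham (0.112% ± 0.0650) and SAH+Tet+ABX (0.183% ± 0.139) and low in SAH (0.0151% ± 0.0104) and SAH+Tet (0.00768% ± 0.00286). UBA1819 had means of 0.0489% ± 0.00446 in Sham and 0.0446% ± 0.0277 in SAH+Tet+ABX, and of 0.00853% ± 0.00743 and 0.0235% ± 0.0160 in SAH and SAH+Tet. The lowest correlations were with Oscillospirales without a deeper name (-0.78), Jeotgalicoccus (-0.76) and Facklamia (-0.73). Facklamia, a Gram-positive coccus, had 0 reads in all Sham and SAH+Tet+ABX libraries, 0.00201%, 0.476% and 0.414% in SAH, and 1.53%, 2.59% and 0.000880% in SAH+Tet, again lowest in SAH 1 and SAH+Tet 3. These correlations describe 12 libraries in 4 groups that share their totals, and carry no test.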

How the data were processed

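Faecal DNA of 12 rat libraries was amplified in a 16S rRNA gene region and sequenced, per the labels' protocols. The deposited values are unscaled read counts per ASV. The submitters' processing notes name fastp and cutadapt, without versions. Denoiser, chimera filter, primers and taxonomy (not given in the sources used here) set which ASVs exist and how they are named. Series and per-sample tables were identical for all 12 libraries. The 2 Eukaryota ASVs were left out. ASVs lacking a genus name were pooled by the deepest rank that is named, giving 384 genus-level names. No correction for 16S copy number was made.

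Counts were tested with edgeR 4.0.16 (quasi-likelihood, TMM) in R 4.3.3 on all genera or ASVs with at least 10 reads in at least 3 libraries. One fit held the 9 libraries without antibiotics and another held all 12, with group as the only term. P-values are Benjamini-Hochberg adjusted over all features tested. The SE was taken as the size of the log2 fold change over the root of F. Alternatives were DESeq2 1.42.0 (poscounts size factors), limma 3.58.1 on centred log-ratio values (0.5 reads added), other scalings, no filter, blocks and left-out libraries. The fits were also run on simulated data of a set spread, which need not match the spread of these libraries, so no result rests on them. Folds against groups at 0 reads use 3 reads per library; their values without single libraries, and list medians without a genus that met the filter in 1 group only, were added after the data were seen. Replicates differed by far more than sampling noise (lowest chi-square per degree of freedom 57.1). Named ASVs were the 10 with the highest mean share and Akkermansia ASVs shared by Sham and SAH+Tet+ABX; genera like Akkermansia were the 5 highest and 3 lowest Spearman correlations. The members, lists and depth classes (split at 300000 reads) were chosen with earlier results of these data known.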

Additional observations from a re-analysis of the deposited data

How the results depend on the processing

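The values are read shares, so only relative change was measured. The Akkermansia share differed among the 4 groups in every setting tried, with an exact permutation p of 0.0256 with an added constant 10 times smaller, 0.00364 with one 10 times larger, 0.0294 without a logarithm and 0.0278 with the replicate block. The number and reads of Akkermansia ASVs shared by Sham and SAH+Tet+ABX (1 ASV, 99.9% to 100% of reads) did not move with any presence threshold, thinning or left-out library. Scaling by library totals shifted the median log2 fold change of all genera from -1.70 to -1.85 for SAH+Tet+ABX against SAH+Tet, and centred log-ratios to -0.03.

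For Akkermansia in SAH against Sham the log2 fold change was -6.68 in DESeq2, -8.86 in limma, -6.04 with depth class as a block and -5.71 in the higher depth class alone, all past the threshold, and -7.21 to -5.67 without 1 library, none past it. The higher depth class alone was added after the data were seen. For SAH+Tet against Sham it was -7.40 in DESeq2, -6.65 with the depth block and -6.59 in the higher class, all past it, and -9.96 to -6.30 without 1 library. For SAH+Tet against SAH it was -3.53 to -0.01 without 1 library. For SAH+Tet+ABX against SAH+Tet it was 6.05 with library totals, 6.52 with the 2 groups alone, 5.61 with the replicate block (these 3 lost the call), 10.16 in limma, 15.77 with the depth block (call kept in both) and 5.75 to 8.90 without 1 library. Against SAH it was 5.75 without the filter, 6.17 in DESeq2, 9.44 in limma and 14.85 with the depth block, which all gained the call, and 4.78 to 6.06 without 1 library. Against Sham it was 0.56 in limma and 9.09 with the depth block, opposite in sign to the rest, and -1.44 to -0.13 without 1 library. ASV_12 against Sham turned likewise (1.23 and 4.57). Without 1 library ASV_12 ranged from 2.57 to 7.22 for SAH+Tet against SAH and -9.88 to -8.41 for SAH+Tet against Sham. For SAH+Tet+ABX against SAH+Tet, Sham and SAH it ranged from 6.85 to 7.84, -2.55 to -0.91 and 9.90 to 14.45. With the depth block WCHB1-41 (1.80) and ASV_907 (0.61) turned in sign for SAH+Tet+ABX against SAH+Tet. In all comparisons with SAH+Tet+ABX the block is set by SAH 1 and SAH+Tet 3, so its Akkermansia calls add no support. The cause of the other changes was not tested.

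The number of Verrucomicrobiota ASVs called moved as follows. For SAH against Sham it was 1 without the filter, 3 in DESeq2, 1 in limma and 2 with the 2 groups alone, and 0 without any 1 library. Of all 2283 ASVs tested there, DESeq2 called 407 and limma 270. For SAH+Tet against Sham it was 1 without the filter, in DESeq2, in limma and with the 2 groups alone, and 0 without any 1 library. Of all 2283 ASVs, DESeq2 called 268 and limma 218. For SAH+Tet+ABX against SAH+Tet it was 1 with library totals, no filter, DESeq2, limma, the 2 groups alone, the replicate block or the depth block, and 0 to 1 without 1 library. Of all 2394 ASVs, library totals called 155, DESeq2 874, limma 234, the replicate block 99 and the depth block 145, in place of 247. Against Sham it was 0 with library totals, no filter, limma, the replicate block or the depth block, and 0 to 3 without 1 library. Against SAH it was 4 in DESeq2 and 0 to 2 without 1 library.

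Replicate numbers are shared between groups in the labels. Over 18 same-numbered pairs, the correlation of deviations from the group mean ran from -0.595 to 0.560. The median was -0.0148, and 4 pairs were over 0.1. With 3 libraries per group this cannot exclude pairing. The numbers were not treated as pairs. With the replicate block edgeR called 45, 39 and 32 genera for SAH+Tet+ABX against SAH+Tet, Sham and SAH, in place of 74, 70 and 54. The depth block called 45, 39 and 36, and it called 26, 1 and 27 genera for SAH against Sham, SAH+Tet against SAH and SAH+Tet against Sham in place of 0. At ASV level 830 calls against Sham became 155, 414, 137 and 99 with library totals, limma, replicate block and depth block in turn. Against SAH 187 became 771 in DESeq2, 86 with the replicate block and 123 with the depth block.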

Other observations

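Among 79 named genera with several ASVs and at least 10 reads in every group, the leading ASV by mean share was the same in Sham and SAH+Tet+ABX in 23, the same in Sham and SAH in 33, and the same in SAH and SAH+Tet in 45. In 3 genera it was the same in Sham and SAH+Tet+ABX and another in SAH and SAH+Tet: Akkermansia, GCA-900066575 and the [Eubacterium] nodatum group, both of the latter members of the Clostridia. This count was made after the Akkermansia pattern had been seen and was not tested.

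For presence at 10 reads, SAH and SAH+Tet+ABX shared 382 ASVs (16.2% of those of SAH and 46.9% of those of SAH+Tet+ABX), and 0 of them were Verrucomicrobiota. SAH+Tet and SAH+Tet+ABX shared 403 (13.8% and 49.5%), of which 1 was ASV_12. Sham and SAH shared 5 Verrucomicrobiota ASVs of 12 in each group, beside 1506 of all ASVs (51.6% of those of Sham and 63.8% of those of SAH). Sham and SAH+Tet shared 7 of 12 and 9, beside 1807 of all ASVs (61.9% and 61.9%).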
